A study of Homo sapiens with 12 samples.

Results

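The interferon regulatory factors are transcription factors that share a DNA-binding domain, and 8 of them, IRF1, IRF2, IRF3, IRF4, IRF5, IRF7, IRF8 and IRF9, were followed in xenograft tumors of JEKO-1, a cell line of mantle cell lymphoma. The members were taken by gene symbol and are 8 of 18239 genes measured. On the arrays they were read by 27 of 45259 probe sets that name 1 gene alone, and the brightest probe set on average stood for the gene. Tumors were grown under the skin of female CB17-SCID mice, which lack functional T and B cells but keep macrophages and natural killer cells. The study treated the mice for 18 days and chose 3 representative tumors from each of 4 groups, each tumor being 1 Affymetrix HT HG-U219 array. The combination group received acadesine at 400 mg/kg and rituximab at 10 mg/kg once a week, the acadesine group and the rituximab group received 1 of these drugs at the same dose, and the control group received vehicle. Acadesine was given daily per the sample labels and on 5 days a week per the study's methods. Acadesine is a nucleoside that activates the energy sensor AMPK after phosphorylation, and rituximab is an antibody that binds the B cell surface protein CD20. All tumors came from this single cell line, so other lymphomas are not represented.

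IRF proteins act at several points of the interferon system and of lymphocyte development. IRF3 and IRF7, once phosphorylated by the kinases TBK1 and IKKε, switch on type I interferon genes, and IRF5 acts downstream of Toll-like receptors. IRF9 is the DNA-binding subunit of ISGF3, the complex with STAT proteins through which type I interferon induces its target genes. IRF1 is induced by interferon gamma and activates genes of antigen presentation, while IRF2 binds the same sequences and can repress them. IRF4 and IRF8 are lymphoid and myeloid members that bind DNA weakly alone and pair with ETS factors such as PU.1 (SPI1) and SPIB, or with BATF. In B cells, IRF4 rises on activation and drives plasma cell differentiation, and IRF8 supports the germinal center program.

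IRF proteins recognize repeats of GAAA, written here as AANNGAAA, and STAT dimers recognize the gamma-activated site, TTCNNNGAA, where N is any base. RefSeq promoter windows of the GRCh38.p14 build, from 250 bases before to 50 bases after an annotated start, were matched for 5 of the 8 members (IRF1, IRF4, IRF5, IRF8 and IRF9). They are shown for IRF8 and IRF4, the members whose RNA differed between combination and control tumors, and for IRF1 and IRF9, which are themselves induced by interferons. Each window is written 5′ to 3′ on the gene's strand, with matches to either motif, on either strand, in capitals.
IRF8, chr16:85902580-85902879, plus strand: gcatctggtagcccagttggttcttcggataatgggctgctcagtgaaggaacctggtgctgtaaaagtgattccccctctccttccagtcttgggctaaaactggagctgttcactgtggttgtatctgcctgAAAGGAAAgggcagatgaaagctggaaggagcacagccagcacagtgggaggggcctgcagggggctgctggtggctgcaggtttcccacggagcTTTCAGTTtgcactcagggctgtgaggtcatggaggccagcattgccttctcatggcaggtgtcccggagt
IRF4, chr6:391502-391801, plus strand: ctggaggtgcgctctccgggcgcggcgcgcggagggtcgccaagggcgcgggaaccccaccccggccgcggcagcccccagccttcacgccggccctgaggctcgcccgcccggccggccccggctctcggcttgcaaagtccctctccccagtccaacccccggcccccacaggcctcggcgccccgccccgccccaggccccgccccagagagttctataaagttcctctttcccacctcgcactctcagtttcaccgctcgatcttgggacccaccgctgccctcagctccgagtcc
IRF1, chr5:132490724-132491023, minus strand: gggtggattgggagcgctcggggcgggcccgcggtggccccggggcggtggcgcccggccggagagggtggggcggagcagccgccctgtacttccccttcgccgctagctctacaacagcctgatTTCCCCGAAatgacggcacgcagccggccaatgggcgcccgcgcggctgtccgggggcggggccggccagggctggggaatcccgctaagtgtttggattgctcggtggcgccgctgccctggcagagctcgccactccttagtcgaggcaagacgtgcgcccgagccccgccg
IRF9, chr14:24161015-24161314, plus strand: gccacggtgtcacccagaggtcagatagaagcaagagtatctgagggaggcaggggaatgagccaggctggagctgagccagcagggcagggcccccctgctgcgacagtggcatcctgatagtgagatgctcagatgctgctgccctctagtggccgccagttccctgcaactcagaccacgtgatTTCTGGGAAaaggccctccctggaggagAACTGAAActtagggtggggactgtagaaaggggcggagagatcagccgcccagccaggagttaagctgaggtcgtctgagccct
The IRF8 window belongs to a start that lies 3668 bases downstream of the annotated 5′ end of the gene, and it held the IRF motif at -116 and, on the other strand, at -21, counted from that start. The IRF4 window held neither motif. The IRF1 window held the gamma-activated site at -124 and no IRF motif, and the IRF9 window held both, the gamma-activated site at -63 and the IRF motif at -35. Over all 35116 such windows, 22.8% held the IRF motif and 7.66% held the gamma-activated site, and a match in a window is a description of letters and not of binding.

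Skeletal muscle transcripts gave signal in some tumors, on an array made for human RNA while the host was a mouse. The mean of 23 muscle genes, relative to the control mean, was -0.05, 1.65 and 0.76 in combination tumors, 0.04, 0.44 and 0.25 in acadesine tumors, -0.04, 0.40 and -0.04 in rituximab tumors, and -0.03, 0.03 and 0.00 in control tumors. The part of this RNA in the results was not tested beyond the fits with a muscle covariate or without these tumors.

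The combination of acadesine and rituximab went with less IRF8 RNA and more IRF4 RNA. IRF8 lay on the log2 scale at 11.48, 11.25 and 11.60 in combination tumors, against 11.79, 12.07 and 12.01 in control tumors. All 3 combination tumors were below all 3 control tumors, and the mean fell by 30.0% (log2 fold change -0.51, standard error 0.0888, adjusted p = 0.00322 from limma). IRF4 lay at 10.31, 10.53 and 10.33 in combination tumors, against 9.88, 10.18 and 9.97 in control tumors, again without overlap. Its mean was 30.1% higher (log2 fold change 0.38, standard error 0.0953, adjusted p = 0.0351). Thus 2 of the 8 members passed the threshold of 0.05, 1 in each direction, where 2.47% of all genes passed (1.14% higher and 1.33% lower). Values did not overlap between the groups for 3 of the 8 members, against 18.5% of all genes. In RNA from whole tumors, fewer cells of one type and less RNA per cell cannot be told apart. IRF4 no longer passed once control tumor 1 or 3, or any 1 of the combination tumors, was left out (adjusted p up to 0.230), whereas the IRF8 call held without any 1 of the 12 tumors (adjusted p up to 0.0317). Where the IRF4 call was lost, its log2 fold change ran from 0.31 to 0.42. In those fits 141 to 376 of all genes passed, against 451 with all tumors.

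Combination tumor 2, with the most muscle RNA, had the lowest IRF8, IRF7 and IRF9 and the highest IRF4 of its group. Combination tumor 1 had no more muscle RNA than the control tumors and lay at 11.48 for IRF8 and 10.31 for IRF4. With muscle RNA added to the fit as a covariate, IRF8 had a log2 fold change of -0.45 against control (adjusted p = 0.0765) and IRF4 had 0.31 (adjusted p = 0.341), so neither passed. Without the 4 tumors highest in muscle RNA, which left 1 combination tumor assumed to vary like the other groups, IRF8 had -0.48 (adjusted p = 0.101) and IRF4 0.30 (adjusted p = 0.592). IRF7 had -0.18 with the covariate (adjusted p = 0.802). Against acadesine tumors, with the covariate, IRF4 had 0.40 (adjusted p = 0.0796) and IRF7 -0.43 (adjusted p = 0.178). Against rituximab tumors IRF8 had -0.45 and passed (adjusted p = 0.0478), and IRF4 had 0.41 and did not (adjusted p = 0.110). In the fit with 1 combination tumor, IRF8 had -0.43 and IRF4 0.34 against rituximab tumors.

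The other 6 members did not pass the test in combination tumors. IRF7, the interferon-inducible activator of interferon alpha genes, lay at 9.78, 9.15 and 9.74 in combination tumors, against 9.93, 9.78 and 10.26 in control tumors. Its log2 fold change was -0.43 (95% confidence interval -0.730 to -0.131, adjusted p = 0.135), and combination tumor 1 lay at the level of control tumor 2, so that the groups overlapped. Without combination tumor 2 the value was -0.23 (adjusted p = 0.594). IRF1 lay at 8.33, 8.15 and 8.18 in combination tumors, against 7.96, 7.66 and 8.11 in control tumors. It was higher in all 3 combination tumors than in any control tumor, with a log2 fold change of 0.31 (95% confidence interval -0.00118 to 0.623, adjusted p = 0.364). IRF2 had -0.15 (adjusted p = 0.650), IRF9 -0.08 (adjusted p = 0.882), IRF3 -0.06 (adjusted p = 0.932) and IRF5 -0.03 (adjusted p = 0.977), and each of these 4 overlapped between the groups. Their intervals still allowed a log2 change of -0.404 for IRF2 and of 0.413 for IRF5. The median size of the log2 change was 0.232 over the 8 members and 0.114 over all genes. These medians were not matched for expression level. The members had means from 6.13 (IRF5) to 11.76 (IRF8) over the 12 arrays, above the median gene level of 5.26.

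**Figure D1:**
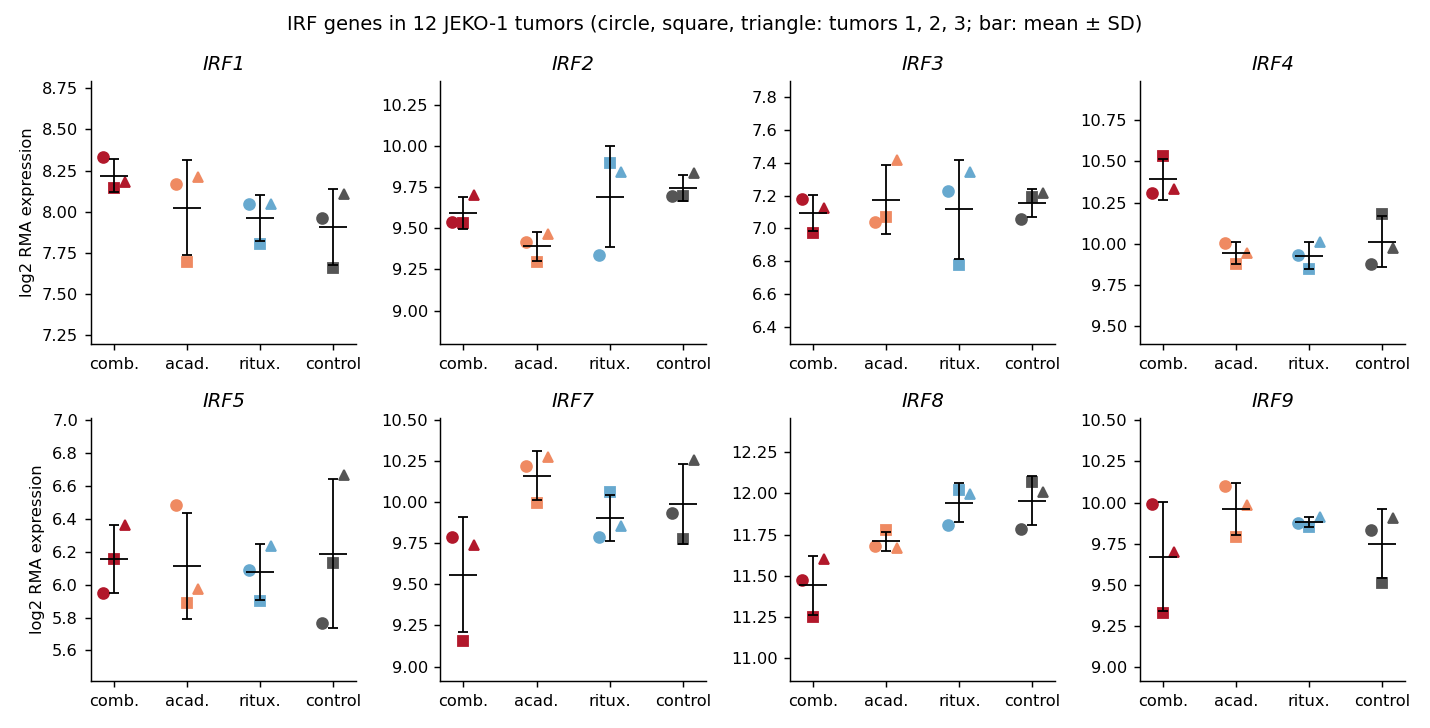
Log2 RMA expression (y axis, 1 panel per gene, each with its own range) of the 8 IRF genes in each of 12 tumors, with combination, acadesine, rituximab and control tumors from left to right. Points are single tumors and bars are the mean ± SD of 3 tumors; combination tumors lie lowest for IRF8, between 11.25 and 11.60, and highest for IRF4, between 10.31 and 10.53.

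Neither drug alone changed an IRF gene by the test, nor any other gene (0% of all genes called for acadesine and 0% for rituximab by limma; 1423 and 768 genes had an unadjusted p under 0.05, and 2 and 0 members did). Those 2 members, after acadesine, were IRF2 and IRF8. IRF2 lay at 9.41, 9.29 and 9.47 in acadesine tumors, against 9.70, 9.70 and 9.84 in control tumors. IRF8 lay at 11.68, 11.78 and 11.67 in acadesine tumors, all 3 below the lowest control value of 11.79. The log2 fold change was -0.35 for IRF2 (standard error 0.120, adjusted p = 0.564) and -0.25 for IRF8 (standard error 0.0888, adjusted p = 0.574). The lower IRF8 after acadesine was seen on the probe set used for the gene only. The other 2 probe sets of IRF8 had -0.09 and 0.01 and overlapped control tumors, and the mean of its probe sets gave -0.11. After rituximab, IRF8 lay at 11.81, 12.02 and 11.999, within the control range, with a log2 fold change of -0.01 (95% confidence interval -0.198 to 0.172). IRF4 had -0.07 after acadesine and -0.08 after rituximab, both with the sign opposite to that in combination tumors. The lymphoid members IRF4 and IRF8 were the most precisely measured of the family, whereas IRF5 had the widest errors, with a standard error of 0.213.

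**Figure D2:**
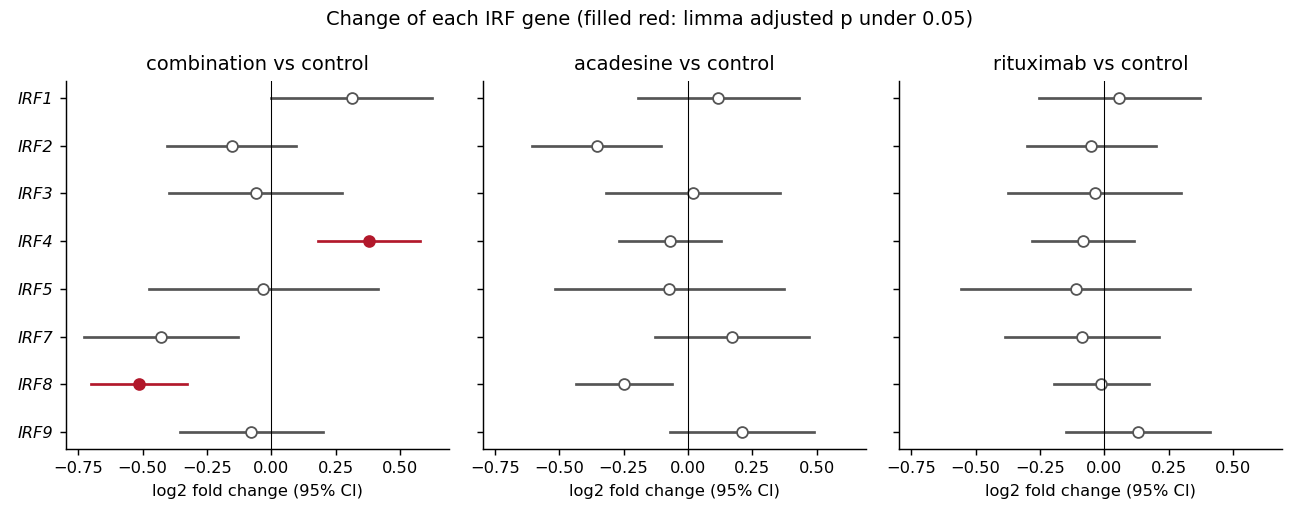
Log2 fold change against control (x axis) of each IRF gene in combination, acadesine and rituximab tumors, one panel for each. Points are limma estimates and lines 95% confidence intervals; filled red points, IRF4 at 0.38 and IRF8 at -0.51 in combination tumors, had an adjusted p under 0.05, and none did in acadesine or rituximab tumors.

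Set against each single agent, the combination again gave higher IRF4. IRF4 was above acadesine tumors (10.01, 9.88 and 9.94) by 0.45 on the log2 scale (standard error 0.0953, adjusted p = 0.0141) and above rituximab tumors (9.93, 9.84 and 10.01) by 0.46 (adjusted p = 0.00992), without overlap in either case. IRF8 was below rituximab tumors (log2 fold change -0.50, adjusted p = 0.00316), while against acadesine tumors the value was -0.27 (adjusted p = 0.127), also without overlap. With the mean of its probe sets, IRF8 had -0.34 against acadesine tumors (adjusted p = 0.0857). IRF7 fell below acadesine tumors, where it lay at 10.22, 9.99 and 10.27 (log2 fold change -0.60, standard error 0.144, adjusted p = 0.0282). Against rituximab tumors, at 9.79, 10.06 and 9.86, IRF7 had -0.34 (adjusted p = 0.251). These comparisons share the combination tumors, and 2.45% of all genes passed against acadesine and 2.82% against rituximab. The IRF7 call was lost without acadesine tumor 1 or 3 or combination tumor 2 (adjusted p up to 0.187). The IRF4 call was lost without combination tumor 2 in both comparisons (adjusted p 0.105 against acadesine and 0.0851 against rituximab), against acadesine also without acadesine tumor 2 (0.0615), and against rituximab also without rituximab tumor 2 (0.0842).

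In order of the group means, IRF8 was lowest in combination tumors (11.44), then in acadesine (11.71), rituximab (11.94) and control tumors (11.96). Of neighbours in this order, combination and acadesine tumors did not overlap but missed the threshold, acadesine and rituximab tumors were not tested against each other, and rituximab and control tumors overlapped. The place of acadesine tumors rests on the probe set used for the gene, as the other IRF8 probe sets had -0.09 and 0.01 against control. IRF4 had 10.39 in combination tumors, 9.94 in acadesine tumors, 9.93 in rituximab tumors and 10.01 in control tumors, and these last 3 groups overlapped. The difference IRF8 minus IRF4 within each array joins both values. It was 1.17, 0.715 and 1.27 in combination tumors, 1.67, 1.90 and 1.72 in acadesine tumors, 1.88, 2.18 and 1.99 in rituximab tumors and 1.91, 1.89 and 2.04 in control tumors. These are differences between probe sets of unlike sensitivity, so they rank tumors but do not give the ratio of the RNAs.

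Whether the combination went beyond the sum of the single agents was read from the interaction, the combination's log2 change minus both single-agent changes. None of the 8 members passed (0.28% of all genes did). At an unadjusted p under 0.05 there were 3 members, against 10.8% of all genes. For IRF4 the sum of the single-agent changes was -0.15 and the combination had 0.38, an interaction of 0.53 (95% confidence interval 0.252 to 0.813, adjusted p = 0.0977). For IRF7 the interaction was -0.51 (adjusted p = 0.345) and for IRF9 -0.42 (adjusted p = 0.425). For IRF8 the sum was -0.26 against -0.51 in the combination, and the interval of the interaction, -0.515 to 0.00782, reached past 0 (adjusted p = 0.485). With the mean of its probe sets, the IRF8 interaction was -0.37 (adjusted p = 0.334). IRF1, IRF2, IRF3 and IRF5 had interactions of 0.14, 0.25, -0.04 and 0.15.

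**Figure D3:**
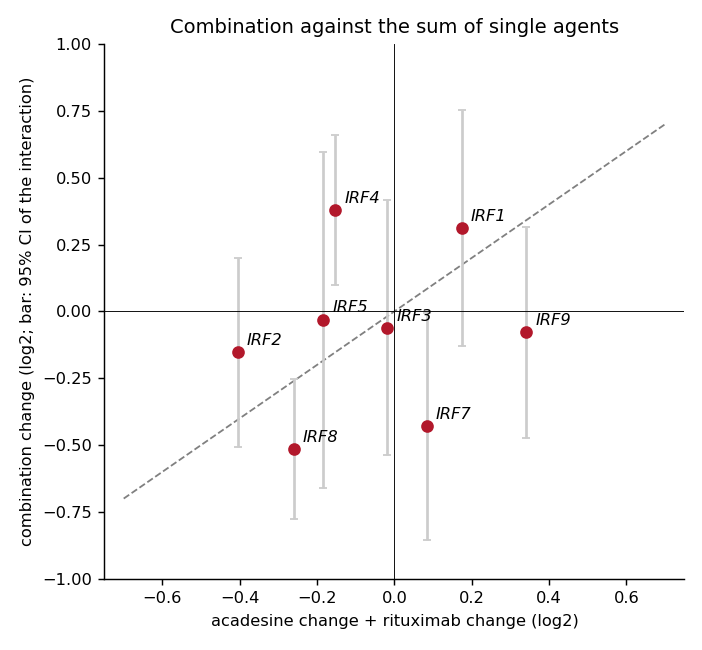
Log2 change of each IRF gene in combination tumors (y axis) against the sum of its changes in acadesine and rituximab tumors (x axis), all relative to control. The dashed line marks equal values and the bars the 95% confidence interval of the interaction; IRF4 lies above the line by 0.53 and IRF7 below it by a log2 value of -0.51, and no interaction passed the test.

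In combination against control, the other probe sets of IRF8 moved the same way as the one used for the gene. With each probe set as a feature of its own, 1.51% of probe sets passed, and the 3 of IRF8 had log2 fold changes of -0.51 (adjusted p = 0.00367), -0.49 (adjusted p = 0.0107) and -0.35 (adjusted p = 0.171). The second of these lay at 10.94, 10.79 and 11.12 in combination tumors, against 11.28, 11.66 and 11.39 in control tumors, without overlap. The third lay at 8.74, 8.70 and 8.70, against 8.88, 9.22 and 9.09 in control tumors, also without overlap. The IRF8 probe set used for the gene is of a type whose probes can bind related transcripts, as its name on the array marks, whereas the other 2 are not of that type. IRF4 had 1 bright probe set, with 0.38 (adjusted p = 0.0521 in this fit), and 1 dim one near the floor of the arrays (mean 4.27), with 0.10 (adjusted p = 0.873). All 4 probe sets of IRF1 had positive values, between 0.11 and 0.31, and all 4 of IRF9 had negative ones, between -0.28 and -0.08. The 6 of IRF3 and the 6 of IRF5 took both signs, from -0.30 to 0.13 and from -0.25 to 0.13. IRF2 and IRF7 had 1 probe set each.

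**Figure D4:**
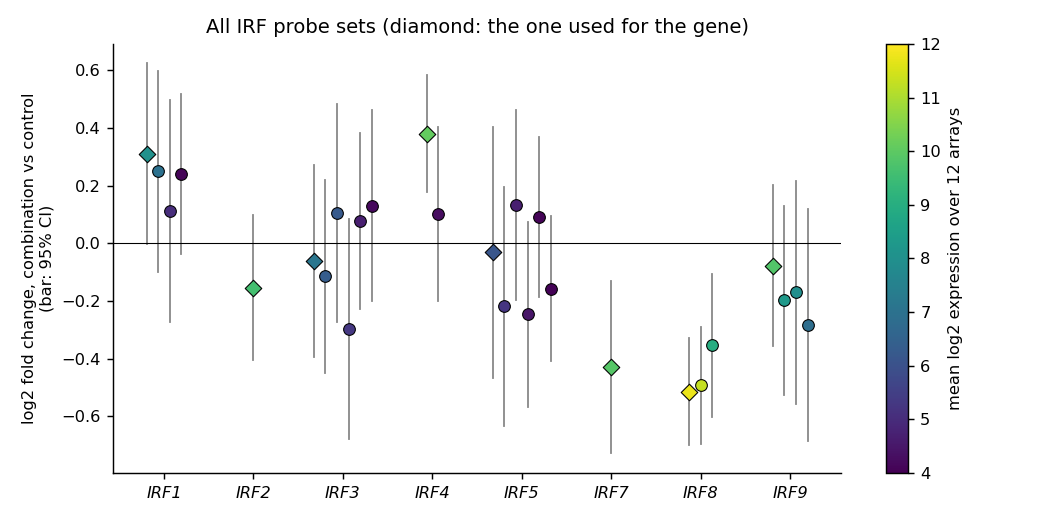
Log2 fold change of combination against control (y axis) for all 27 probe sets of the 8 IRF genes, with 95% confidence intervals as lines and the mean log2 expression over 12 arrays as color. Diamonds mark the probe set that stands for the gene; the 3 IRF8 probe sets lie between -0.51 and -0.35, and the IRF3 and IRF5 probe sets lie on both sides of 0.

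Among genes that encode partners of IRF proteins, 1 of 17 passed the test in combination tumors, where 2.47% of all genes passed. The partner gene that passed was higher. TCF3, which encodes the E2A proteins of B cell development, lay at 11.76, 11.90 and 11.76 in combination tumors, against 11.35, 11.58 and 11.20 in control tumors (log2 fold change 0.43, standard error 0.0939, adjusted p = 0.0167). The count was 0 when control tumor 1, control tumor 3 or combination tumor 2 was left out, and also with the muscle covariate, without the 4 tumors highest in muscle RNA, with the mean of a gene's probe sets and without the intensity trend in the variance. IKZF1, the lymphoid factor Ikaros, had 0.30 (adjusted p = 0.0717) and passed against acadesine tumors. BATF, an AP-1 factor that pairs with IRF4 and IRF8, lay at 7.39, 7.17 and 7.49 in combination tumors, against 8.12, 7.55 and 8.03 in control tumors. All of its combination values were below all control values, with a log2 fold change of -0.55 that missed the threshold (adjusted p = 0.0660). The ETS partners had -0.09 for SPI1, which was near the floor of the arrays in all tumors, and -0.16 for SPIB.

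Of 6 measured B cell targets of IRF4 and IRF8, limma called none (2 had an unadjusted p under 0.05, against 13.9% of all genes). Of the 6, 3 lay higher and 3 lower. PRDM1, which encodes Blimp-1 of plasma cells, had -0.29 (adjusted p = 0.489), and BCL6, the germinal center repressor, had 0.03 (adjusted p = 0.975). CIITA, the transactivator of MHC class II, had 0.35 (adjusted p = 0.154), and XBP1, of the secretory program, had 0.32 (adjusted p = 0.331). CIITA lay at 8.48, 8.38 and 8.25 in combination tumors and at 7.99, 8.10 and 7.96 in control tumors, without overlap.

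Genes upstream of the IRF proteins gave no call by limma in combination against control; at an unadjusted p under 0.05 there were 2 interferon genes, 4 of the receptor and JAK-STAT genes and 4 kinases and adaptors, against 13.9% of all genes. The 11 measured interferon genes had a median log2 change of 0.03, and IFNB1, the interferon beta gene that IRF3 and IRF7 activate, lay between 3.66 and 4.31 in these 2 groups, near the floor, with -0.34 (adjusted p = 0.172). IFNK had -0.31, IFNA6 -0.25 and IFNL1 0.15, at similarly low levels. Of 17 genes of interferon receptors and JAK-STAT signaling, 3 lay higher and 14 lower, none past the test, with a median of -0.05. IL10RB, a chain of the interferon lambda receptor, had -0.34 (adjusted p = 0.120), IFNAR1, a chain of the type I receptor, -0.38 (adjusted p = 0.158), the negative regulator USP18 -0.47 (adjusted p = 0.225), and the phosphatase PTPN2 0.16 (adjusted p = 0.448). Of 15 kinases and adaptors that activate IRF3, IRF5 or IRF7, 7 lay higher and 8 lower. TANK, an adaptor of TBK1, had -0.47 (adjusted p = 0.192), the adaptor OPTN -0.36 (adjusted p = 0.136), and TRAF6, of Toll-like receptor signaling, 0.38 (adjusted p = 0.225).

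The targets of ISGF3 and IRF1 that passed the test in combination tumors were all lower. Of 43 measured targets of ISGF3, the complex that IRF9 directs, 42 lay lower and 15 passed the test, all lower, where 1.33% of all genes passed lower. The median log2 change of the 43 was -0.61, against a median of 0.00 over all genes. The list overlaps interferon-stimulated genes already known to be lower in these tumors and is no independent evidence of direction. Its mean level, relative to the control mean, was -0.45, -1.02 and -0.55 in combination tumors and 0.19, -0.34 and 0.16 in control tumors. SP110, a nuclear body protein, lay at 9.07, 8.77 and 8.99 in combination tumors, against 9.84, 9.67 and 9.90 in control tumors (log2 fold change -0.86, adjusted p = 0.000161). IFI44 had -1.23 (adjusted p = 0.00322) and PARP9, an ADP-ribosyltransferase, -0.77 (adjusted p = 0.00392). IFITM3 had 0.00 but lay between 4.04 and 4.42 in all tumors, below the median gene level of 5.26. Against acadesine tumors 17 of the 43 passed, all lower (1.13% of all genes passed in that direction), and against rituximab tumors 20 did (1.31% of all genes). After acadesine or rituximab alone limma called none of the 43, with medians of 0.00 for both and 0 and 1 of them at an unadjusted p under 0.05. Against control, 5 passed without control tumor 3 or combination tumor 2, 8 without control tumor 1 and 29 without control tumor 2. The count was 7 with the mean of a gene's probe sets or without the intensity trend. With the muscle covariate, where 100 of all genes passed, 1 of the 43 passed and the median was -0.34. Without the 4 tumors highest in muscle RNA the median was -0.39. In both cases 42 of the 43 lay lower.

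Of 24 measured interferon gamma targets of IRF1, 6 passed in combination tumors, all lower, where 1.33% of all genes passed lower. The median of the 24 was -0.11, against 0.00 over all genes, although the IRF1 gene itself had a positive value. This list was also chosen with earlier results of these data known and is no independent evidence of direction. The 6 were TAP1 and TAP2, the peptide transporter, PSMB8 and PSMB9, subunits of the immunoproteasome, the protease CASP1 and HLA-F. CASP1 lay at 10.05, 9.99 and 10.33 in combination tumors, against 10.72, 10.58 and 10.62 in control tumors (log2 fold change -0.52, adjusted p = 0.00537). TAP1 had -0.53 (adjusted p = 0.00616) and HLA-F -0.74 (adjusted p = 0.00670). Without control tumor 3 or combination tumor 2, 1 of the 24 passed and 4 did without control tumor 1. The count was 1 with the mean of a gene's probe sets and 3 without the intensity trend in the variance. It was 0 with the muscle covariate, where 100 of all genes passed and 17 of the 24 lay lower with a median of -0.19. Without the 4 tumors highest in muscle RNA the median was -0.17. Members of this list that did not pass lay on both sides of 0, and CIITA stood among those with a positive value. IRF9 itself lay at 9.99, 9.33 and 9.70 in combination tumors, against 9.83, 9.51 and 9.91 in control tumors, and combination tumor 1 was above all control tumors.

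**Figure D5:**
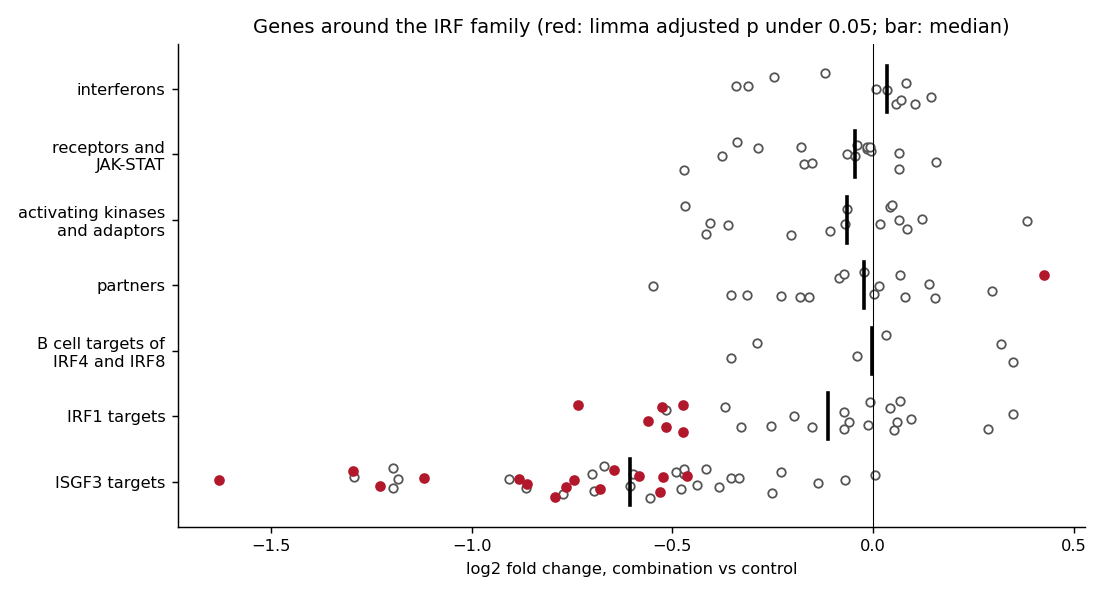
Log2 fold change of combination against control (x axis) for each measured gene of 7 lists around the IRF family (rows). Circles are genes, filled red where the limma adjusted p was under 0.05, and black bars are medians; the ISGF3 targets have a median of -0.61 with 15 called genes, and the lists of interferons, receptors, kinases and B cell targets have none.

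The genes with the closest pattern to IRF8 over the 12 arrays were CHMP7, an ESCRT-III subunit (Pearson r = 0.978, Spearman rho = 0.979, r = 0.919 after the group means were removed), LPGAT1, a lipid acyltransferase (r = 0.944), and BIRC2, the apoptosis inhibitor cIAP1 (r = 0.943). CHMP7 was lower in combination tumors by a log2 fold change of -0.51 (adjusted p = 0.0115), and BIRC2 had -0.21 (adjusted p = 0.105). Those closest to IRF4 were TUBB2B, a beta tubulin (r = 0.933), MYO9A, a myosin (r = 0.933), and IL7R, a receptor chain of lymphoid progenitors (r = 0.932). For IRF4 r was 0.836, 0.834 and 0.817 with these 3 genes after the group means were removed, and Spearman rho was 0.832, 0.853 and 0.685. In all, 21 genes had r over 0.9 with IRF8 and 19 with IRF4. These correlations describe arrays that share treatment groups and normalization.

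The tumors carried the B cell and lymphoma markers of their label (MS4A1 between 11.9 and 12.6, CD79B between 11.67 and 12.01, CCND1 between 11.98 and 12.39). Of the 7 measured ones limma called none in combination against control, with 3 at an unadjusted p under 0.05. Among these 3, CD79A (-0.34, adjusted p = 0.153) and MS4A1 (-0.24, adjusted p = 0.270) lay lower and SOX11 lay higher. MS4A1 had -0.31 against rituximab tumors (adjusted p = 0.107). SOX11, a transcription factor of mantle cell lymphoma, had a log2 fold change of 0.96 against control (adjusted p = 0.0503) and was higher in combination than in acadesine tumors (1.14, adjusted p = 0.0198) and rituximab tumors (1.35, adjusted p = 0.00574). Since IRF8 is also a gene of macrophages and dendritic cells, their markers were read beside it: in combination against control limma called none of 13 macrophage and monocyte markers and none of 7 dendritic cell markers (1 of each at an unadjusted p under 0.05). The array was made for human RNA while host cells were of mouse, so the macrophage, dendritic cell and fibroblast markers are no direct measure of host cells. Against acadesine tumors 1 macrophage marker was lower, the signaling adaptor TYROBP (log2 fold change -0.60, adjusted p = 0.0317). Against rituximab tumors 4 of the 7 dendritic cell markers lay higher and 3 lower. Of these only LILRA4 passed (log2 fold change 1.28, adjusted p = 0.00325), and CLEC4C had -0.14. The graft was a lymphoma cell line and the host a mouse, so the LILRA4 value is not read as a change in dendritic cells. CD14, CSF1R, CD163 and ADGRE1 lay between 3.47 and 4.27 in all tumors, below the median gene level of 5.26, while AIF1 and TYROBP lay between 7.46 and 8.45. The mean macrophage marker level, relative to the control mean, was -0.06, -0.20 and -0.11 in combination tumors and 0.09, -0.12 and 0.03 in control tumors. Of 10 fibroblast markers, the collagen gene COL3A1 was higher against control (log2 fold change 0.72, adjusted p = 0.00483), and against rituximab COL1A1 (1.46, adjusted p = 0.00489) and COL3A1 (0.70, adjusted p = 0.00542) were. COL3A1 lay between 3.76 and 4.86 in all tumors, below the median gene level, and COL1A1 between 4.15 and 6.24. Against control 8 of the 10 lay higher and 2 lower, with a median of 0.09. The mean fibroblast marker level was 0.11, 0.11 and 0.27 in combination tumors, -0.07, 0.04 and 0.07 in acadesine tumors, -0.13, -0.16 and -0.12 in rituximab tumors and -0.07, 0.18 and -0.11 in control tumors. The part of these markers in the IRF8 and IRF4 results was not tested.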

How the data were processed

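The deposited values were log2 RMA expression, which the authors made with background correction, quantile normalization between arrays and summary per probe set; no raw array file was used here. Quantile normalization gives all arrays nearly the same spread of values, so a shift common to most genes cannot be seen. Values ran from 3.09 to 14.3, array medians from 4.59 to 4.66, and arrays correlated with r from 0.989 to 0.996 across genes. Symbols came from the platform annotation, replaced by the current RefSeq symbol of the same Entrez gene number where there was one. Of 49293 probe sets besides 93 controls, 45259 named 1 gene.

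The 4 groups entered 1 fit with limma 3.58.1 (R 4.3.3), whose variance prior followed the intensity. A log2 fold change is the difference between group means of log2 values. P values were adjusted over all 18239 genes by the Benjamini-Hochberg method, with 0.05 as the threshold. The number of tumors limits the precision: the median standard error was 0.135, and an exact test of 3 against 3 tumors cannot give a two-sided p below 0.1. Rank Products (FDR 0.2, fold change 1.4, 100 permutations) followed the study's methods as an alternative in Python 3.11.15 with numpy 2.4.6. Both tests were tested on simulated data.

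The members and lists were chosen with earlier results of these data known. Named were all members, 5 fixed partners and targets, up to 3 genes per list by smallest p and 1 of the opposite sign, and the 3 genes most correlated with each called member; the further genes of the B cell, interferon gamma and marker lists were named after their values were seen. Some listed genes were not analysed here. Alternatives covered probe set choice, filters, variance models, array weights, normalization, tumor number, muscle level and left-out tumors; their use on the list counts was added after the data were seen.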

Additional observations from a re-analysis of the deposited data

How the results depend on the processing

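Of the 8 IRF genes, 2 were called in combination against control (IRF4 and IRF8), 2 against acadesine (IRF4 and IRF7) and 2 against rituximab (IRF4 and IRF8). Against control, 1 was called, IRF8 each time, with the mean of a gene's probe sets, with every probe set as a feature, without the intensity trend or with arrays centred on the median. With the muscle level as a covariate the count was 0, and 100 of all 18239 genes passed, where 451 passed in the main fit. By Rank Products the count was also 0, although Rank Products called 1366 of 49293 probe sets (lowest IRF8 FDR 0.241). Of the members only IRF8 reached the fold change of 1.4 that Rank Products also required. IRF4 had 1.30, so this test could not call IRF4. Without the 4 tumors highest in muscle RNA, which left 1 combination tumor, IRF8 had -0.48 and IRF4 0.30 against control. Against acadesine the count was 0 with the mean of probe sets, without the trend and with the muscle covariate. Against rituximab the count was 1, IRF8, with the mean of probe sets or the muscle covariate, and 0 without the trend. Leaving out each tumor in turn gave 1 to 2 calls against control, 0 to 2 against acadesine and 1 to 2 against rituximab.

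The sign of IRF8 and of IRF4 against control was the same in the 11 other settings and with each of the 12 tumors left out. For IRF8, log2 fold changes ran from -0.53 to -0.45 in the settings and from -0.60 to -0.42 with a tumor left out. IRF9, which was not called, had 0.23 against control with the muscle covariate. For the single agents and the interaction the count was 0 in every setting run. Tumors of equal number were only weakly correlated (18 pairs of deviations, r from -0.121 to 0.190). The mean r was 0.041, against -0.020 for other numbers, and 7 of 12 tumors were closest to their own number, so a weak pairing is not excluded. With the replicate block 2 genes were called in each of the comparisons of the combination with control, acadesine and rituximab. They were the same genes as without the block, and 0 were called for the interaction. Cyclic loess or median centring moved the median of all genes by less than 0.1.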
